A study of Caenorhabditis elegans with 24 samples.

Results

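The comparison is between the last embryonic stage sampled in a Caenorhabditis elegans time course, 500 min after the 4-cell stage, and the stage labelled 330 min, with 1 stage, 410 min, between them. It contrasts 6 of the 24 libraries of the series, chosen by label alone. These are the 3 labelled stage 8 (500 min) and the 3 labelled stage 6 (330 min). All embryos were of the N2 strain, carried no transgene or treatment that the labels name, and were removed by mouth pipette from adults that had been cut open. A sample pooled 50 whole embryos, and its messenger RNA was counted by CEL-Seq, which covers transcripts at their 3′ ends only. Bulk embryos hold every tissue at once, so more cells of a type and more RNA per cell of that type cannot be told apart. The model behind the p-values was fitted to all 24 libraries, so the spread between samples of a stage was estimated over every stage of the series. Nothing in the labels says that the 3 samples of a stage came from separate cultures. The p-values therefore measure changes only against that spread between samples.

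Worm embryos complete nearly all of their cell divisions in the first part of embryogenesis. Then the epidermis encloses the embryo, elongates it and secretes the first cuticle, while muscle, pharynx, intestine and neurons make the proteins with which they will work after hatching. Different regulators act along this path. Transient ones, such as the proneural factors and the Notch and Wnt signals of early lineages, start a fate, and others, such as terminal selectors, keep a differentiated state in place.

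Worm counts per library were 569969, 380018 and 977908 at 330 min and 215900, 867941 and 572849 at 500 min. A single count stood for 0.869 to 2.71 CPM (counts per 1e6 counts, scaled by TMM factors) at 330 min and for 1.48 to 5.91 CPM at 500 min, where replicate 1 was the shallowest. Between libraries of the same stage, Spearman correlations across genes were 0.927 to 0.975, against 0.523 to 0.598 between stages. The yolk protein genes vit-1 to vit-6, made in the adult intestine, summed to 0, 1127 and 331 CPM at 330 min and to 5.91, 709 and 465 CPM at 500 min, and 0 of the 6 was called. All 30 genes for major sperm proteins were too low to test, and 1 of 16 tested oocyte and maternal genes, mex-6, was called. It fell at a log2 change of −1.82, and the call was lost without replicate 2 or replicate 3 of 500 min (log2 −2.06 and −1.56, edgeR adjusted p = 0.0668 and 0.0936). No count exceeded 1023, and 527 tested genes exceeded 500 counts in at least 1 of the 6 libraries, close enough to that limit that their changes may be understated. The gene mex-6 was not called by DESeq2 (fitted log2 −1.75, adjusted p = 0.0575).

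Of 8279 genes tested with edgeR's quasi-likelihood F test, 2358 (28.5%) were higher at 500 min and 1862 (22.5%) were lower at a Benjamini-Hochberg adjusted p below 0.05, with 1911 and 1359 of them changed by at least 2-fold. The median log2 change was −0.03 over all tested genes, 2.26 over the higher genes and −1.39 over the lower ones. The libraries of the stages did not overlap in CPM for 2146 of the higher genes and 1687 of the lower ones. The higher genes were 55.9% of all calls with TMM factors, 35.7% (1739 higher, 3130 lower) when only library size was used and 45.0% (1166 higher, 1426 lower) when libraries were scaled to the ERCC spike-ins, RNA standards of known amount. Those scalings moved the median of all genes to −0.49 and −0.63, so a change of that size or less depended on the scaling. The median SE of a log2 change was 0.68 with that scaling to spike-ins, against 0.35 with TMM factors, so a call could be lost there without a smaller change.

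A gene was counted as switched off when it was called lower by at least 4-fold, averaged 20 CPM or more at 330 min and under 10 CPM at 500 min, and had no overlap between the libraries of the stages. The mirror rule defined genes switched on. By these rules 235 genes (2.84% of those tested) were switched off and 816 (9.86%) were switched on. Of the 235, 140 peaked between 60 and 180 min, 33 peaked at 330 min itself, and 89 were already under 10 CPM at 410 min. Of all 1862 lower genes, 1215 peaked between 60 and 180 min and 210 at 330 min. Among the 816, 762 peaked at 500 min, 411 had reached 20 CPM by 410 min and 270 were still under 10 CPM then. Of all 2358 higher genes, 1939 peaked at 500 min, and the rule for switched-on genes itself favours that peak. Among the switched-on genes 146 had 0 counts in all 3 libraries of 330 min, and 10 of the switched-off genes had 0 counts in all 3 libraries of 500 min. For such genes a fold is given as a lower bound, with 3 counts over the stage (1.42 CPM at 330 min, 2.33 CPM at 500 min) in place of 0, set against the lower of the mean and the pooled CPM of the other stage. Without the deepest library of 330 min, replicate 3, that floor would be 3.14 CPM and the bounds 2.2 times lower. Where a stage held 1 to 3 counts, the ratio of the counts pooled over each stage is given with its exact 95% counting interval.

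**Figure D1:**
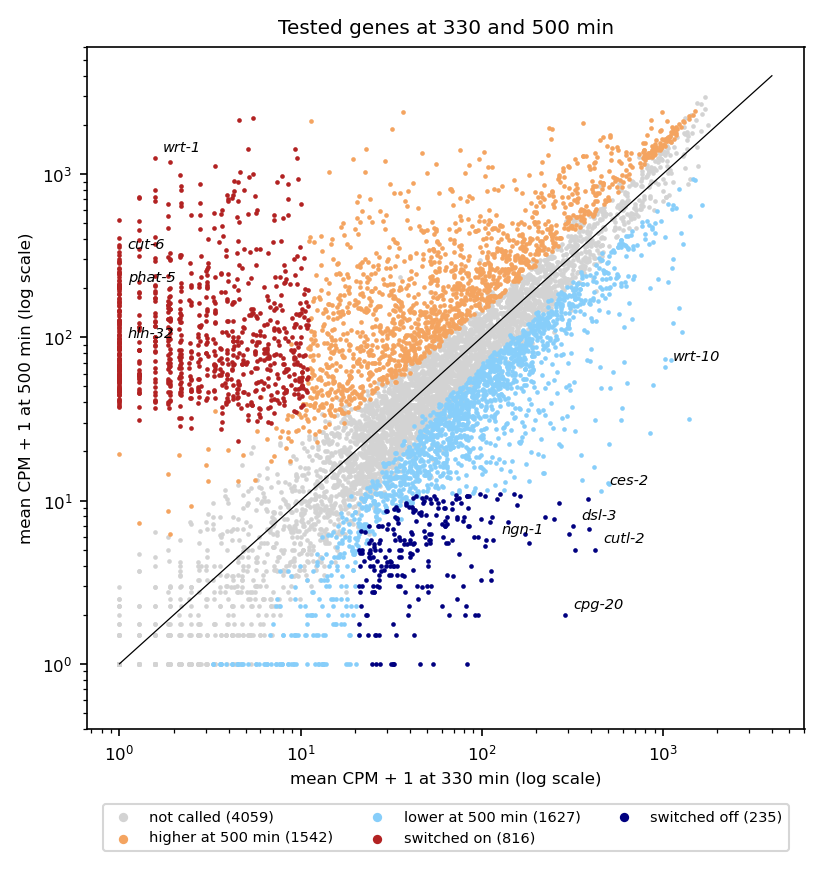
Mean CPM + 1 of each of the 8279 tested genes at 330 min (x axis, log scale) and 500 min (y axis, log scale), 3 libraries a stage, coloured by call, with equal levels on the diagonal. The 816 switched-on genes lie at the upper left and the 235 switched-off genes at the lower right.

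The 12 lowest and 12 highest fitted changes were taken from the called genes that had no overlap between stages and averaged at least 50 CPM at the higher stage. Among the 12 lowest, the insulin-like peptide gene ins-2 stood at 27.2, 21.7 and 196 CPM at 330 min and 0 CPM in all 3 libraries of 500 min (at least 34.9-fold lower, edgeR adjusted p = 0.000369). Its 330 min libraries were far apart, with replicate 3 above the others, and the stages did not overlap, but the call was lost in a fit to the 6 libraries alone (edgeR adjusted p = 0.162), although its fitted change there (log2 −8.76) was no smaller than with all 24 libraries (log2 −8.48). A fitted change of a gene at 0 counts in a stage depends on the prior count and is not a bound. The chondroitin proteoglycan gene cpg-20 stood at 315, 206 and 347 CPM at 330 min and 0, 2.96 and 0 CPM at 500 min (201-fold lower, counting interval 55.5 to 1665, edgeR adjusted p = 1.51e-13). The immunoglobulin-domain gene zig-4, which encodes a secreted protein that keeps axons in place, stood at 385, 317 and 275 CPM at 330 min and 5.91, 5.93 and 0 CPM at 500 min (log2 change −6.30, SE 0.99, edgeR adjusted p = 2.95e-05). The other 9 were the UDP-glucuronosyltransferase gene ugt-53 (at least 21.5-fold), the cuticlin-like cutl-2 (log2 −6.42, SE 0.38), the arrestin-domain gene arrd-1 (72.9-fold, counting interval 19.9 to 605), the Notch ligand dsl-3 (log2 −5.80, SE 0.34), the proteoglycan gene cpg-24 (log2 −5.73, SE 0.39), the FLYWCH zinc finger gene flh-3 (57.9-fold, counting interval 15.8 to 482), the leucine zipper gene ces-2 (log2 −5.67, SE 0.33), C40A11.2 (59.4-fold, counting interval 16.2 to 494) and the F-box gene fbxc-51 (log2 −5.53, SE 0.39). The strand used in counting is not given in the sources used here, so a gene that overlaps another one is uncertain. The gene C40A11.2 overlaps another gene. The bound of ins-2 was 10.5-fold without replicate 3 of 330 min.

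At the other end, the hedgehog-related gene wrt-1 stood at 1.70, 0 and 0 CPM at 330 min and 1199, 1162 and 1405 CPM at 500 min (2636-fold higher, counting interval 472 to 104178, edgeR adjusted p = 1.12e-16). The cuticlin gene cut-6 stood at 0 CPM in all 3 libraries of 330 min and 319, 322 and 313 CPM at 500 min (at least 223-fold higher, edgeR adjusted p = 5.07e-14). Levels of cut-6 at 500 min differed little between libraries, and at 410 min it still averaged only 2.35 CPM. The remaining 10 of the 12 highest were sups-1 (at least 368-fold), C14A4.9 (2293-fold, counting interval 411 to 90637), valv-1 (at least 277-fold), D1054.9 (at least 257-fold), T01D1.4 (at least 252-fold), H23N18.5 (at least 234-fold), F30A10.2 (at least 199-fold), T05C1.3 (at least 188-fold), the O-acyltransferase gene mboa-1 (at least 199-fold) and Y54G2A.37 (at least 197-fold). The genes sups-1, C14A4.9, valv-1 and D1054.9 overlap another gene. The genes C14A4.9 and F30A10.2 were not called by DESeq2 (fitted log2 11.03 and 10.06, adjusted p = 0.113 and 0.155). The bound of H23N18.5 was 146-fold without replicate 2 of 500 min.

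The largest share of lower calls among the lists of regulators was in the proneural and neural progenitor list, whose members start the neural fate in dividing precursors. Of 18 tested members 12 fell and 3 rose, against 22.5% lower and 28.5% higher over all genes, and the median log2 change was −1.89 (−1.88 where genes at 0 counts take their bound). The neurogenin gene ngn-1 stood at 157, 67.7 and 119.9 CPM at 330 min and 11.8, 0 and 2.27 CPM at 500 min (51.8-fold lower, counting interval 17.5 to 253, edgeR adjusted p = 5.44e-10). The atonal homologue lin-32 stood at 40.9, 24.4 and 58.2 CPM at 330 min and 0, 1.48 and 0 CPM at 500 min (61.0-fold lower, counting interval 10.7 to 2432, edgeR adjusted p = 1.46e-06). The zinc finger gene ztf-11, of the Myt1 type, stood at 46.0, 37.9 and 52.1 CPM at 330 min and 0, 8.90 and 13.6 CPM at 500 min (log2 change −2.30, SE 0.47, edgeR adjusted p = 7.61e-05). These 3 were switched off, and ngn-1 and lin-32 averaged 4.65 and 8.83 CPM already at 410 min.

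Other proneural genes fell steeply but kept a low level. The NeuroD homologue cnd-1 stood at 206, 244 and 205 CPM at 330 min and 17.7, 19.3 and 4.53 CPM at 500 min (log2 change −3.95, SE 0.35, edgeR adjusted p = 7.59e-12). The achaete-scute homologue hlh-14 stood at 199, 203 and 261 CPM at 330 min and 5.91, 23.7 and 11.3 CPM at 500 min (log2 change −3.73, SE 0.36, edgeR adjusted p = 9.41e-11). Both missed the switched-off rule only because their means at 500 min, 13.8 and 13.7 CPM, were over 10 CPM. A second achaete-scute homologue, hlh-3, went from 91.2 ± 17.4 CPM to 11.0 ± 9.65 CPM (mean ± SD, n = 3 a stage, as for all such values), log2 −2.69. Their common dimerisation partner hlh-2 went from 302 ± 39.0 CPM to 49.9 ± 18.8 CPM, log2 −2.48. The gene ham-1, which acts in asymmetric neuroblast divisions, went from 239 ± 39.8 CPM to 38.7 ± 14.0 CPM, log2 −2.51. The Snail homologue ces-1 fell at a log2 change of −1.45 from 20.8 CPM, with overlapping libraries, and its call was lost without replicate 3 of 330 min (edgeR adjusted p = 0.484), replicate 2 of 500 min (0.106) or replicate 3 of 500 min (0.128). The gene ces-1 overlaps another gene. The gene ces-1 was not called by DESeq2 (fitted log2 −1.20, adjusted p = 0.183).

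The members that rose were hlh-32, sox-3 and egl-13. The basic helix-loop-helix gene hlh-32 stood at 0 CPM in all 3 libraries of 330 min and 112, 65.2 and 90.6 CPM at 500 min (at least 56.3-fold higher, edgeR adjusted p = 1.13e-09). The SOX genes sox-3 and egl-13 went from 9.23 ± 5.33 CPM to 59.9 ± 11.7 CPM (log2 2.71) and from 110.0 ± 28.3 CPM to 514 ± 32.4 CPM (log2 2.26). The SoxB gene sox-2 was not called, at 272, 393 and 386 CPM at 330 min and 283, 483 and 396 CPM at 500 min (log2 change 0.18, SE 0.22, edgeR adjusted p = 0.522), with overlapping libraries.

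In Notch signalling a membrane-bound ligand makes the receptor of a neighbouring cell release its intracellular part, which then acts in the nucleus. Of 17 tested pathway genes 9 fell (52.9%) and 2 rose (11.8%), against 22.5% and 28.5% over all genes. The median log2 change was −0.92. The ligand gene dsl-3 (WBcel235 annotation, chromosome IV, 1610273 to 1612924) stood at 296, 292 and 366 CPM at 330 min and 5.91, 2.96 and 9.06 CPM at 500 min (log2 change −5.80, SE 0.34, edgeR adjusted p = 3.31e-16). The target gene ref-1, which encodes a bHLH repressor, stood at 28.9, 29.8 and 26.9 CPM at 330 min and 0, 4.45 and 4.53 CPM at 500 min (log2 change −2.79, SE 0.52, edgeR adjusted p = 2.45e-05). Both were switched off. The receptor gene lin-12 went from 24.1 ± 13.0 CPM to 8.93 ± 2.94 CPM (log2 −1.73), a call lost without replicate 3 of 330 min (edgeR adjusted p = 0.111). Among genes of the proteases that cleave the receptor, sup-17 (log2 −0.61) and the gamma-secretase gene aph-1 (log2 −0.91) fell by less. Further gamma-secretase genes were called lower too. The co-ligand gene osm-11, which adds to the ligands' action, rose by log2 1.74. The genes aph-1 and osm-11 overlap another gene. The calls of sup-17 and aph-1 were lost with scaling to spike-ins while the fitted change was larger (log2 −1.16 and −1.35). The call of osm-11 was lost with that scaling at a smaller change (log2 1.26).

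In the Wnt and beta-catenin pathway, 11 of 28 tested genes fell (39.3%) and 4 rose (14.3%), against 22.5% and 28.5% over all genes. The genes that fell included those of the early asymmetry pathway, which gives the daughters of a division different fates. The Dishevelled gene dsh-2 stood at 93.6, 56.9 and 134 CPM at 330 min and 0, 10.4 and 4.53 CPM at 500 min (log2 change −3.81, SE 0.44, edgeR adjusted p = 3.02e-09). The beta-catenin gene sys-1 stood at 68.1, 27.1 and 84.3 CPM at 330 min and 0, 10.4 and 4.53 CPM at 500 min (log2 change −3.18, SE 0.50, edgeR adjusted p = 1.5e-06). The Wnt ligand gene mom-2 stood at 98.7, 75.8 and 135 CPM at 330 min and 5.91, 11.9 and 11.3 CPM at 500 min (log2 change −3.27, SE 0.38, edgeR adjusted p = 4.66e-09). All 3 were switched off, and that rule itself requires that the libraries of the stages do not overlap.

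The TCF gene pop-1 fell from 88.4 ± 23.7 CPM to 10.1 ± 7.17 CPM (log2 −3.02, SE 0.76). The Wntless gene mig-14, needed to secrete Wnts, fell from 169.6 ± 13.6 CPM to 27.5 ± 17.3 CPM (log2 −2.94). Smaller falls were called for the beta-catenin gene wrm-1 (log2 −1.24), the APC-related gene apr-1 (log2 −1.38) and the planar polarity gene vang-1 (log2 −1.13). Of the genes that rose, the ligand gene egl-20 stood at 25.5, 21.7 and 19.1 CPM at 330 min and 136, 156 and 136 CPM at 500 min (log2 change 2.71, SE 0.33, edgeR adjusted p = 1.15e-08). The ligand gene lin-44 rose by log2 1.49. Without replicate 2 of 330 min, replicate 3 of 330 min or replicate 3 of 500 min, only 2 genes of the pathway rose. The kinase gene lit-1 was not called, at log2 0.16 (edgeR adjusted p = 0.616). The genes pop-1, apr-1 and vang-1 overlap another gene. The call of lin-44 was lost with scaling to spike-ins at a smaller change (log2 0.99).

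For muscle and mesoderm 7 of 15 tested members fell (46.7%) and 1 rose (6.67%), against 22.5% and 28.5% over all genes. The Hand homologue hnd-1, an early factor of muscle precursors, stood at 18.7, 19.0 and 22.6 CPM at 330 min and 0, 0 and 2.27 CPM at 500 min (26.8-fold lower, counting interval 4.57 to 1083, edgeR adjusted p = 3.58e-05) and was switched off. The caudal homologue pal-1, which specifies posterior muscle and epidermal precursors, went from 151 ± 23.4 CPM to 31.3 ± 7.47 CPM (log2 −2.17), and the sine oculis homologue unc-39 from 61.8 ± 6.93 CPM to 15.3 ± 5.50 CPM. The serum response factor homologue unc-120 stood at 426, 447 and 399 CPM at 330 min and 218, 479 and 430.5 CPM at 500 min (log2 change −0.12, SE 0.21, edgeR adjusted p = 0.661). The MyoD homologue hlh-1 stood at 56.2, 40.6 and 72.1 CPM at 330 min and 47.2, 56.3 and 58.9 CPM at 500 min (log2 change −0.08, SE 0.31, edgeR adjusted p = 0.857). Neither of these last genes was called, and the libraries of their stages overlapped. The homeobox gene ceh-24 stood at 0 CPM in all 3 libraries of 330 min and 53.1, 38.5 and 27.2 CPM at 500 min (at least 25.7-fold higher, edgeR adjusted p = 2.58e-07) and was switched on. The genes pal-1, unc-39 and hlh-1 overlap another gene. The gene ceh-24 was not called by DESeq2 (fitted log2 7.29, adjusted p = 0.215).

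In the pharynx list 6 of 13 tested regulators fell (46.2%) and 0 rose, against 22.5% and 28.5% over all genes. The median log2 change was −0.78 (−0.53 where genes at 0 counts take their bound). The FoxA gene pha-4, which specifies pharyngeal identity, stood at 1076, 888 and 646 CPM at 330 min and 496, 488 and 437 CPM at 500 min (log2 change −0.88, SE 0.25, edgeR adjusted p = 0.00316). It fell less than 2-fold and stayed above 400 CPM in every library. The bZIP gene ces-2, known for its part in the death of sister cells of pharyngeal neurons, stood at 453, 460.5 and 451 CPM at 330 min and 17.7, 8.90 and 4.53 CPM at 500 min (log2 change −5.67, SE 0.33, edgeR adjusted p = 8.32e-16). Its fall was nearly complete by 410 min, where it averaged 11.5 CPM, and its 500 min mean of 10.4 CPM lay just above the limit for switched-off genes. The homeobox gene ceh-27 fell from 227 ± 11.2 CPM to 91.1 ± 7.75 CPM (log2 −1.29). The Nkx gene ceh-22 (log2 0.17), the sine oculis homologue ceh-34 (log2 0.06) and tbx-2 (log2 −0.53) were not called. The genes ceh-27, ceh-22 and ceh-34 overlap another gene.

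Of 18 tested regulators of the epidermis 5 fell (3 without replicate 3 of 330 min and 3 without replicate 3 of 500 min) and 2 rose. The share that fell, 27.8%, was near the 22.5% over all genes, and 11.1% rose against 28.5%. The GATA gene elt-3 stood at 221, 165 and 178 CPM at 330 min and 100.4, 62.3 and 63.4 CPM at 500 min (log2 change −1.41, SE 0.25, edgeR adjusted p = 1.03e-05). The nuclear receptor gene nhr-25 and the zinc finger gene die-1, needed for morphogenesis, fell at log2 changes of −1.21 and −1.42. Both averaged less at 410 min (8.81 and 10.2 CPM) than at 500 min (45.5 and 35.5 CPM). The Grainyhead gene grh-1 stood at 0, 0 and 1.74 CPM at 330 min and 53.1, 23.7 and 40.8 CPM at 500 min (35.3-fold higher, counting interval 9.19 to 301, edgeR adjusted p = 1.63e-06) and was switched on. The BED zinc finger gene bed-3 rose from 27.9 ± 6.84 CPM to 209.9 ± 122 CPM (log2 2.99). The GATA gene elt-1 and the zinc finger gene lin-26, which specify epidermal cells, were not called (log2 0.16 and −0.42, edgeR adjusted p = 0.661 and 0.114), nor was elt-6 (log2 −0.06). With a replicate block lin-26 was called lower (log2 −0.448, edgeR adjusted p = 0.0360), as it was without replicate 2 of 500 min (log2 −0.678, 0.0249). The genes bed-3 and lin-26 overlap another gene.

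For endoderm and intestine 3 of 12 tested regulators rose and 3 fell, both close to the shares over all genes (28.5% and 22.5%). With scaling to the spike-ins 0 rose and 3 fell, and with library size alone 1 rose and 4 fell. The GATA gene elt-2, the main activator of intestinal genes, stood at 35.7, 75.8 and 52.1 CPM at 330 min and 23.6, 29.6 and 49.9 CPM at 500 min (log2 change −0.56, SE 1.14, edgeR adjusted p = 0.712). It was not called and its SE was wide. Its partner elt-7 fell from 25.2 ± 8.14 CPM to 10.9 ± 6.61 CPM (log2 −1.49), with overlapping libraries and a call lost without replicate 3 of 330 min (edgeR adjusted p = 0.0596) or replicate 3 of 500 min (0.0828). The Max-binding gene mdl-1 (log2 1.89) and the Nrf homologue skn-1 (log2 1.06) rose. The gene skn-1 overlaps another gene. The calls of mdl-1 and skn-1 were lost with scaling to spike-ins at a smaller change (log2 1.36 and 0.54).

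The terminal selectors of neuron types, which switch on and hold the genes of 1 kind of neuron, did not move together. Of 27 tested members 7 rose and 6 fell, both close to the shares over all genes, and 14 were not called. With scaling to the spike-ins 2 rose and 4 fell, and with library size alone 3 rose and 12 fell. The homeobox gene unc-4 stood at 0 CPM in all 3 libraries of 330 min and 35.4, 81.5 and 58.9 CPM at 500 min (at least 41.2-fold higher, edgeR adjusted p = 3.17e-08), and was at 0 in every library of 410 min as well. The T-box gene mab-9 rose from 7.31 ± 1.93 CPM to 61.3 ± 30.6 CPM (log2 3.08). These genes were switched on. The Pitx gene unc-30 of GABA neurons rose by log2 1.20. Without replicate 2 of 500 min 4 members rose and 7 fell. The POU gene unc-86 stood at 131, 157 and 134 CPM at 330 min and 129.9, 194 and 202 CPM at 500 min (log2 change 0.37, SE 0.28, edgeR adjusted p = 0.272). Like unc-86, ttx-1 (log2 −0.10) and unc-42 (log2 −0.21) were not called. The gene unc-42 overlaps another gene. The call of unc-30 was lost with scaling to spike-ins at a smaller change (log2 0.60).

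The zinc finger gene egl-46 stood at 469.7, 553 and 350.1 CPM at 330 min and 41.3, 50.4 and 52.1 CPM at 500 min (log2 change −3.19, SE 0.30, edgeR adjusted p = 1.78e-10). Its partner egl-44 fell at a log2 change of −0.60. The zinc finger gene ham-2 stood at 37.4, 19.0 and 52.1 CPM at 330 min and 11.8, 1.48 and 0 CPM at 500 min (18.1-fold lower, counting interval 5.99 to 89.4, edgeR adjusted p = 3.35e-05) and was switched off. The Distal-less gene ceh-43 and the forkhead gene unc-130 fell at log2 changes of −1.52 and −1.18. Among Hox genes and cofactors, 2 of 9 tested members fell, among them the Pbx gene ceh-20 (log2 −0.73), and 1 rose, against 22.5% lower and 28.5% higher over all genes. With scaling to the spike-ins 0 fell and 0 rose, and with library size alone 6 fell and 0 rose. The Hox genes lin-39 (log2 −0.12), mab-5 (log2 0.22), php-3 (log2 −0.23) and ceh-13 (log2 −0.52) were not called. Of 9 tested genes of developmental timing, the nuclear receptor gene daf-12 rose from 14.3 ± 3.56 CPM to 81.7 ± 27.6 CPM (log2 2.55) and kin-20 by log2 1.00. The Argonaute gene alg-2 fell at a log2 change of −1.39, while its relative alg-1 (log2 0.14) and lin-28 (log2 0.26) were not called. The genes ham-2, ceh-20 and lin-28 overlap another gene. The calls of egl-44 and ceh-20 were lost with scaling to spike-ins while the fitted change was larger (log2 −1.15 and −1.33). The call of kin-20 was lost with that scaling at a smaller change (log2 0.30). The gene egl-44 was not called by DESeq2 (fitted log2 −0.43, adjusted p = 0.0986).

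Of 20 tested genes of the EGF, FGF, TGF-beta and Ras pathways 7 rose and 2 fell, but only 1 rose with scaling to the spike-ins, where the list's median turned from 0.24 to −0.36. The FGF receptor gene egl-15 rose from 15.6 ± 6.63 CPM to 95.9 ± 33.5 CPM (log2 2.72), the scaffold gene soc-2 from 219 ± 56.2 CPM to 704 ± 71.0 CPM (log2 1.67) and the TGF-beta gene unc-129, a guidance cue, from 145 ± 4.21 CPM to 360.3 ± 56.7 CPM (log2 1.33). In the TGF-beta branches the Smad gene sma-3 fell (log2 −1.62), and the Smad gene daf-3 and its partner daf-5 rose (log2 1.13 and 1.02). The Ras gene let-60 was not called (log2 0.21, edgeR adjusted p = 0.373). The calls of soc-2, unc-129, daf-3 and daf-5 were lost with scaling to spike-ins at a smaller change (log2 1.00, 0.77, 0.43 and 0.44).

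By transcription factor class, the nuclear hormone receptors had the most members tested. Of 78 tested nhr genes 32 rose and 8 fell with TMM factors, 19 rose and 12 fell with library size alone, and 6 rose and 7 fell with scaling to the spike-ins. With TMM factors the shares were 41.0% and 10.3%, against 28.5% higher and 22.5% lower over all genes. The genes nhr-41, nhr-50 and nhr-213 were switched on, and nhr-41 stood at 1.70, 2.71 and 0.869 CPM at 330 min and 70.9, 37.1 and 56.6 CPM at 500 min (33.9-fold higher, counting interval 11.1 to 169, edgeR adjusted p = 3.9e-08). Another, nhr-152, was switched off (log2 −2.88). Of 36 tested ceh homeobox genes 11 fell and 4 rose, with 7 and 2 without replicate 3 of 500 min, and 2 that rose without replicate 3 of 330 min or replicate 2 of 500 min. With all libraries the shares were 30.6% and 11.1%, against 22.5% lower and 28.5% higher over all genes. With library size alone 19 fell and 2 rose, and with scaling to the spike-ins 9 and 2. The genes nhr-50 and nhr-152 overlap another gene.

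Of 12 tested hlh genes 5 fell (3 without replicate 3 of 330 min) and 2 rose. Of 11 tested forkhead genes 4 fell and 1 rose, and of 16 ztf genes 6 fell and 2 rose. The shares that fell were 41.7%, 36.4% and 37.5%, against 22.5% over all genes. Those that rose were 16.7%, 9.09% and 12.5%, against 28.5%. With library size alone 8 ztf genes fell and 0 rose, and with scaling to the spike-ins 4 and 0. Of 4 tested SOX genes 3 rose and 0 fell. The SOX gene sox-4 stood at 0, 0 and 1.74 CPM at 330 min and 47.2, 51.9 and 56.6 CPM at 500 min (55.8-fold higher, counting interval 14.9 to 469.8, edgeR adjusted p = 5.28e-08) and was switched on. The leucine zipper gene atf-8 and the ETS gene ets-4 were switched on too, but both averaged more at 410 min (657 and 161 CPM) than at 500 min (227 and 92.0 CPM). The zinc finger gene ztf-30 was switched off from 24.4 CPM at 330 min to 1.74 CPM, with a mean of 296 CPM at 410 min in between. Further regulators among the switched-off genes, picked after their values were seen, were the nuclear receptor gene sex-1, an X-chromosome signal of sex determination (log2 −3.98), the Pax gene pax-1 (at least 13.4-fold), hmg-6 (at least 13.0-fold lower), the kinase gene pig-1, which acts in unequal divisions (log2 −3.23), and the SREBP gene sbp-1 (log2 −2.76). The genes atf-8, ets-4, pax-1, hmg-6 and sbp-1 overlap another gene.

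**Figure D2:**
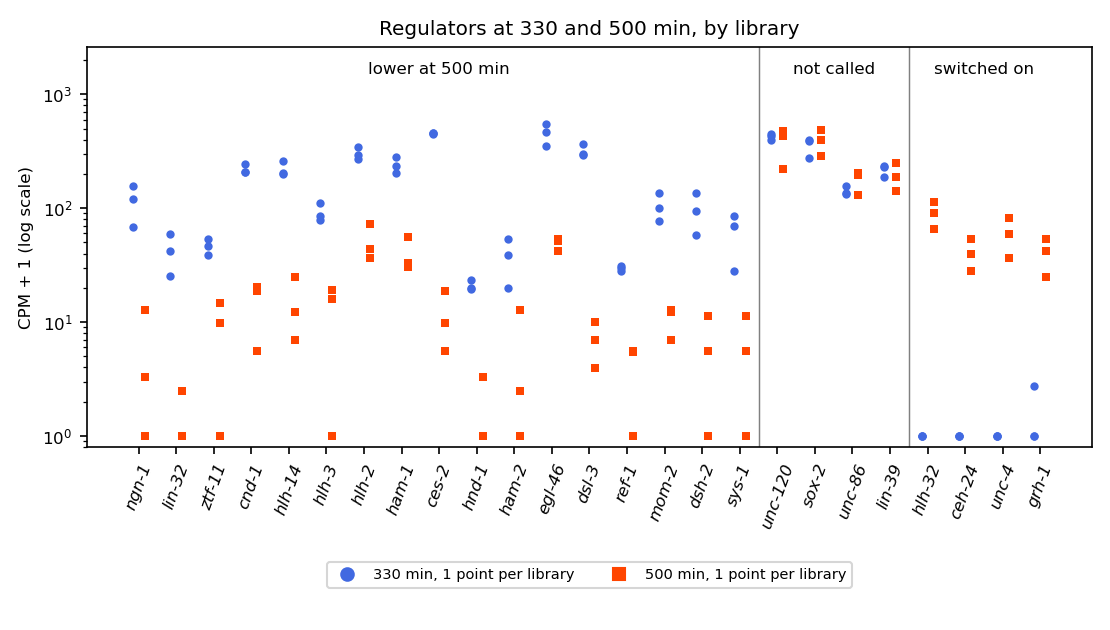
CPM + 1 (y axis, log scale) of 25 regulators in each library, with 330 min as circles and 500 min as squares, picked by hand from the regulator lists to show each kind of call. The libraries of the stages do not overlap for the 17 genes on the left or the 4 on the right, and they overlap for unc-120, sox-2, unc-86 and lin-39. Most called genes had no overlap (2146 of 2358 higher and 1687 of 1862 lower genes), and the rules for switched genes require it.

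The machinery of cell division fell in nearly every member tested. Of 93 tested genes of replication, mitosis and cytokinesis 81 fell, 1 rose and 11 were not called, against 22.5% lower over all genes, and 25 of the 81 were switched off. The median log2 change was −2.39, and the summed level was 9842 to 11875 CPM over the 330 min libraries and 2008 to 3091 CPM over those of 500 min. The kinetochore kinase gene bub-1 stood at 88.5, 106 and 118 CPM at 330 min and 0, 7.41 and 6.80 CPM at 500 min (log2 change −4.04, SE 0.35, edgeR adjusted p = 4.41e-12). The replication licensing gene cdt-1 stood at 204, 73.1 and 173 CPM at 330 min and 11.8, 8.90 and 9.06 CPM at 500 min (SE of the log2 change 0.40, edgeR adjusted p = 9.74e-11). The anaphase activator gene fzy-1 went from 63.1 ± 26.4 CPM to 6.17 ± 5.00 CPM (log2 −3.76), the kinetochore gene hcp-1 from 97.6 ± 35.0 CPM to 2.24 ± 2.22 CPM (log2 −4.90) and the helicase gene mcm-7 from 218 ± 59.0 CPM to 17.8 ± 5.18 CPM (log2 −3.73). The member that rose was klp-7, a kinesin that takes microtubules apart, at 90.2, 78.5 and 63.4 CPM at 330 min and 159, 209 and 222 CPM at 500 min (log2 change 1.40, SE 0.27, edgeR adjusted p = 4.39e-05). The genes hcp-1 and mcm-7 overlap another gene. The call of klp-7 was lost with scaling to spike-ins at a smaller change (log2 0.86).

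Of 19 tested genes that hold division back 9 fell (14 with library size alone) and 0 rose. With TMM factors the share that fell was 47.4%, against 22.5% lower and 28.5% higher over all genes. The retinoblastoma homologue lin-35 went from 64.5 ± 31.1 CPM to 13.9 ± 8.45 CPM (log2 −2.61), its partners lin-53 and lin-54 fell at log2 changes of −2.57 and −1.98, and the E2F gene efl-1 at a log2 change of −1.68. The D-type cyclin partner cdk-4, picked after its value was seen, was switched off (log2 −3.10). The gene lin-35 overlaps another gene.

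Histone genes moved both ways. Of 43 tested members 12 fell and 4 rose (of the 13 tested in a fit to the 6 libraries alone, 6 fell and 4 rose), and near-identical copies make single values uncertain. Over all genes 22.5% fell and 28.5% rose, so the share of histone genes that fell (27.9%) was near that of all genes. With library size alone 18 fell and 3 rose, and with scaling to the spike-ins 14 and 2. The linker histone genes hil-3 and hil-2 fell from means of 1114 and 1224 CPM to 71.5 and 149.6 CPM (log2 −3.90, SE 0.29, and log2 −2.97, SE 0.31). The genes his-35, his-41 and his-37 rose, and his-35 stood at 52.8, 97.5 and 53.0 CPM at 330 min and 850.3, 741 and 768 CPM at 500 min (log2 change 3.60, SE 0.28, edgeR adjusted p = 5.13e-13). CEL-Seq primes on poly(A) tails, so transcripts without a tail are not counted. The genes his-41 and his-37 overlap another gene. The call of his-37 was lost with scaling to spike-ins at a smaller change (log2 1.10).

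Of 21 tested genes of cell death and engulfment 7 fell (14 with library size alone) and 1 rose. With TMM factors the shares were 33.3% and 4.76%, against 22.5% lower and 28.5% higher over all genes. The death trigger gene egl-1 stood at 90.2, 51.5 and 46.0 CPM at 330 min and 29.5, 22.2 and 4.53 CPM at 500 min (log2 change −1.84, SE 0.44, edgeR adjusted p = 0.000691). The caspase activator gene ced-4 fell from 83.4 ± 16.6 CPM to 17.6 ± 6.87 CPM (log2 −2.10), the protective gene ced-9 from 276 ± 43.2 CPM to 129 ± 10.6 CPM (log2 −1.08) and ttr-52, which marks dying cells for engulfment, from 50.5 ± 6.56 CPM to 4.70 ± 2.11 CPM (log2 −3.39). The last was switched off. The gene that rose, wah-1 (log2 1.19), encodes a mitochondrial protein. In the germline and P granule list 3 of 21 tested genes fell (14.3%) and 1 rose (4.76%), both under the shares over all genes. The gene gcna-1 was switched off, at log2 −3.23. The genes wah-1 and gcna-1 overlap another gene. The call of wah-1 was lost with scaling to spike-ins at a smaller change (log2 0.58).

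**Figure D3:**
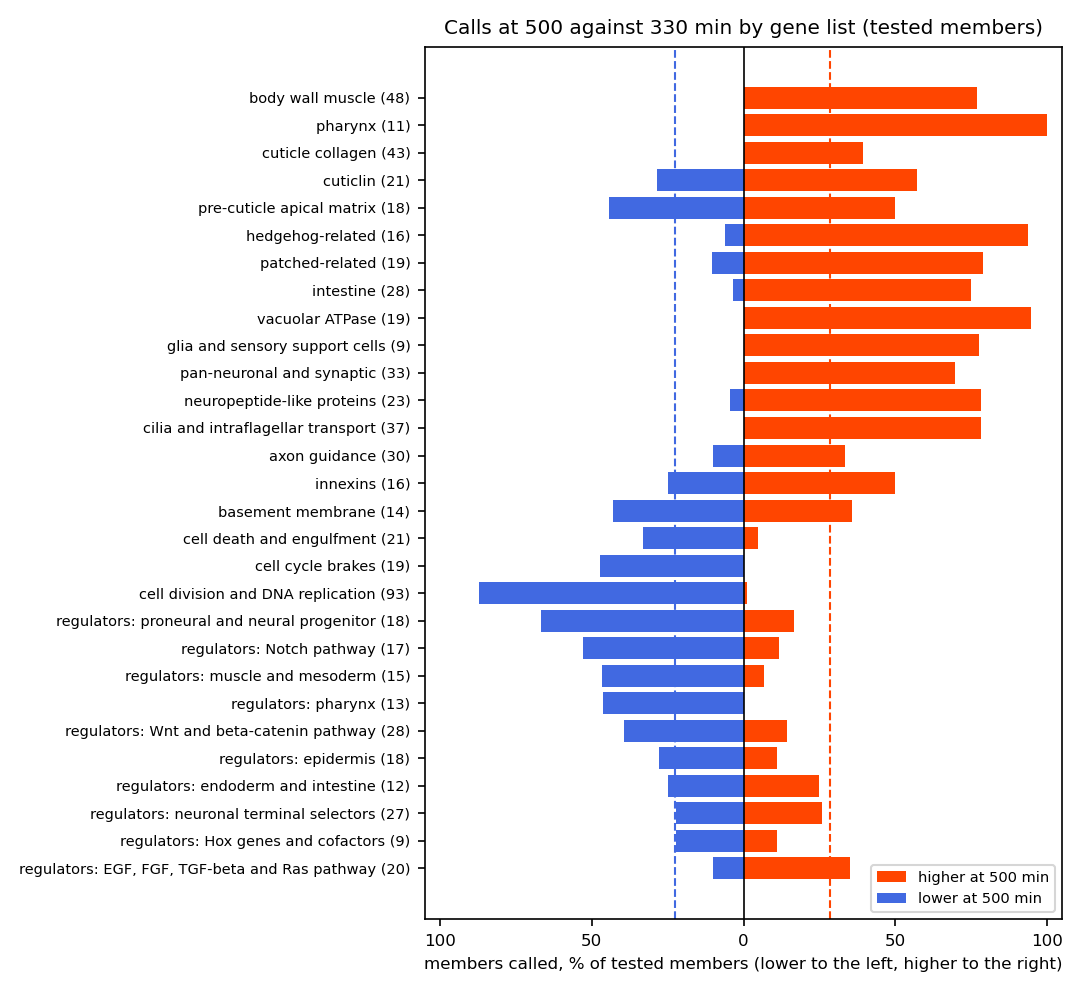
Share of the tested members of each list (number in brackets) called higher (to the right) or lower (to the left) at 500 against 330 min, in % of tested members, with dashed lines at the shares over all tested genes, 28.5% and 22.5%. Most tissue lists extend further to the right, and the cell division and proneural lists to the left. The basement membrane list extends further to the left (42.9% lower, 35.7% higher), and the pre-cuticle and cuticlin lists extend to both sides.

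On the side of terminal differentiation, the contractile apparatus rose. The counts with TMM factors in the lists below stand against 28.5% higher and 22.5% lower over all tested genes. Of 48 tested genes of body wall muscle 37 rose and 0 fell, with a median log2 change of 1.69 and a summed level of 9314 to 15189 CPM over the 330 min libraries and 29650 to 32979 CPM over those of 500 min. With scaling to the spike-ins 17 of the 48 rose and 0 fell, and 21 of the 29 members without any count over 500 rose. The PDZ-LIM gene alp-1, of dense bodies and adhesion sites, stood at 3.40, 5.42 and 3.48 CPM at 330 min and 526, 642 and 539 CPM at 500 min (log2 change 7.13, SE 0.37, edgeR adjusted p = 5.59e-17). The calsequestrin gene csq-1, which stores calcium, stood at 1.70, 2.71 and 0.869 CPM at 330 min and 65.0, 154 and 186 CPM at 500 min (108-fold higher, counting interval 36.3 to 527, edgeR adjusted p = 1.46e-10). The genes unc-87 (thin filament binding), sgca-1 (sarcoglycan) and zyx-1 (zyxin) rose by log2 4.97, 3.81 and 3.03. The defining myosin heavy chain genes had been on before. At 330 min myo-3 already averaged 284 CPM and unc-54 281 CPM, and they rose by log2 1.61 and 1.97. The genes alp-1, unc-87 and sgca-1 overlap another gene. The call of myo-3 was lost with scaling to spike-ins at a smaller change (log2 1.24).

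Genes of the differentiated pharynx went from near 0 to high levels. All 11 members that passed the filter rose, which the filter on low counts favours, and 19 others were too low to test. With no filter 18 of 26 rose and 0 fell. The summed level was 73.8 to 152 CPM over the 330 min libraries and 2616 to 4965 CPM over those of 500 min, and 8 were switched on. Troponin I of the pharynx, tni-4, stood at 0, 10.8 and 1.74 CPM at 330 min and 638, 1121 and 1115 CPM at 500 min (log2 change 8.26, SE 0.43, edgeR adjusted p = 4.74e-17). The pharyngeal gland gene phat-5 stood at 0 CPM in all 3 libraries of 330 min and 82.7, 344 and 169.9 CPM at 500 min (at least 139.7-fold higher, edgeR adjusted p = 1.42e-10). The myosin gene myo-5 stood at 0 CPM in all 3 libraries of 330 min and 35.4, 227 and 116 CPM at 500 min (at least 88.5-fold higher, edgeR adjusted p = 4.42e-10). In none of these did the stages overlap, as in 2146 of all 2358 higher genes, and phat-5 and myo-5 were at 0 in every library of 410 min. Troponin T, tnt-4, went from 1.16 ± 2.01 CPM to 166 ± 83.2 CPM. The gene abu-13, of a family of near-identical glutamine- and asparagine-rich proteins, went from 8.67 ± 3.25 CPM to 935 ± 217 CPM. The genes tni-4 and abu-13 overlap another gene. The bound of myo-5 was 53.0-fold without replicate 2 of 500 min. The bound of phat-5 was 88.7-fold without replicate 2 of 500 min.

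Of 28 tested genes of the differentiated intestine 21 rose and 1 fell, with a median log2 change of 1.98. With scaling to the spike-ins 11 rose and 2 fell. The summed level was 1986 to 2853 CPM over the 330 min libraries and 7806 to 7843 CPM over those of 500 min. Replicate 1 of each stage had almost no yolk protein counts. Whether material of the adult intestine added to the counts of this list was not tested. The peptide transporter gene pept-1 stood at 0, 0 and 1.74 CPM at 330 min and 207, 308 and 356 CPM at 500 min (328-fold higher, counting interval 90.2 to 2718, edgeR adjusted p = 6.87e-15). The aspartic protease gene asp-3 stood at 0, 13.5 and 6.95 CPM at 330 min and 337, 424 and 396 CPM at 500 min (log2 change 5.92, SE 0.57, edgeR adjusted p = 2.59e-09). The V-ATPase subunit gene vha-6, the intermediate filament gene ifd-1 and the protease gene asp-2 rose by log2 5.78, 5.78 and 5.28. A protease of the same family, asp-4, fell, at 495, 634 and 397 CPM at 330 min and 65.0, 40.0 and 38.5 CPM at 500 min (log2 change −3.51, SE 0.25, edgeR adjusted p = 2.42e-14). The genes asp-2 and asp-4 overlap another gene.

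The vacuolar ATPase, which acidifies organelles and drives transport in gut, canal and epidermis, rose in 18 of 19 tested subunit genes and fell in 0, with a median log2 change of 1.58. With scaling to the spike-ins 3 rose, with the median still above 0 (1.00). The subunit a gene vha-5, which acts in the excretory canal and epidermis, stood at 5.11, 8.13 and 0.869 CPM at 330 min and 590.5, 565 and 569 CPM at 500 min (log2 change 7.28, SE 0.41, edgeR adjusted p = 3.59e-16). The shared subunit genes vha-11, vha-8 and vha-16 rose by log2 1.96, 1.84 and 1.81. Of 8 tested genes of the excretory canal 3 rose (37.5%), 1 fell (12.5%) and 4 were not called, against 28.5% higher and 22.5% lower over all genes. The median log2 change was 0.37 and the summed levels overlapped (1798 to 4207 CPM over the 330 min libraries and 3384 to 6005 CPM over those of 500 min). Among them exc-5 rose from 16.2 ± 8.85 CPM to 227 ± 94.9 CPM (log2 3.89) and inx-12 fell at a log2 change of −0.52, a call lost without replicate 1 or 2 of 330 min or replicate 2 or 3 of 500 min (edgeR adjusted p of 0.0689 to 0.276). The gene vha-5 overlaps another gene. The call of inx-12 was lost with scaling to spike-ins while the fitted change was larger (log2 −1.14). The calls of vha-11, vha-8 and vha-16 were lost with that scaling at a smaller change (log2 1.38, 1.20 and 1.27). The gene inx-12 was not called by DESeq2 (fitted log2 −0.33, adjusted p = 0.306).

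The cuticle, made of cross-linked collagens and cuticlins, is the outer coat of the worm. Of 178 collagen genes only 43 passed the filter, of which 17 rose, 0 fell and 14 were switched on. Without the filter 46 of 169 rose and 4 fell. The collagen gene col-165 stood at 0, 5.42 and 1.74 CPM at 330 min and 608, 1401 and 1346 CPM at 500 min (log2 change 9.03, SE 0.92, edgeR adjusted p = 4.5e-07). The gene lon-3, which affects body length, stood at 0, 2.71 and 0 CPM at 330 min and 129.9, 111 and 145 CPM at 500 min (264-fold higher, counting interval 46.7 to 10495, edgeR adjusted p = 1.12e-10). The genes col-74 (at least 149-fold), col-131 (at least 55.1-fold) and col-177 (at least 50.7-fold) were at 0 in every library of 330 min. The protease gene dpy-31, whose product trims collagen precursors, rose from 15.2 ± 5.92 CPM to 283 ± 33.4 CPM (log2 4.08). In contrast the prolyl hydroxylase genes dpy-18 and phy-2 and the disulphide isomerase gene pdi-1, which act on new collagen chains, fell at log2 changes of −1.18, −1.75 and −0.80. The genes col-74 and dpy-31 overlap another gene. The call of pdi-1 was lost with scaling to spike-ins while the fitted change was larger (log2 −1.25). The gene col-177 was not called by DESeq2 (fitted log2 8.10, adjusted p = 0.264). The bound of col-131 was 36.3-fold without replicate 2 of 500 min. The bound of col-74 was 80.9-fold without replicate 2 of 500 min.

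Of 21 tested cuticlin genes 12 rose (57.1%) and 6 fell (28.6%), against 28.5% and 22.5% over all genes. Besides cut-6, cut-3 stood at 0, 2.71 and 2.61 CPM at 330 min and 720.4, 1118 and 782 CPM at 500 min (log2 change 8.68, SE 0.52, edgeR adjusted p = 7.88e-14). The cuticlin-like gene cutl-2 stood at 408, 444 and 413 CPM at 330 min and 0, 2.96 and 9.06 CPM at 500 min (log2 change −6.42, SE 0.38, edgeR adjusted p = 3.01e-16) and was switched off. The gene cut-2 rose by log2 7.86 and cut-5 (94.0-fold, counting interval 31.6 to 460.5) rose too, while cutl-20 and cutl-29 fell at log2 changes of −2.15 and −1.96. The genes cut-3, cut-5, cutl-20 and cutl-29 overlap another gene.

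Of 18 tested genes of the matrix that coats the epidermis before the cuticle, 9 rose (50.0%) and 8 fell (44.4%), against 28.5% and 22.5% over all genes. The summed level overlapped between stages (4564 to 6770.0 CPM over the 330 min libraries and 6208 to 8751 CPM over those of 500 min). The fibrillin-like gene fbn-1 stood at 962, 897 and 697 CPM at 330 min and 23.6, 26.7 and 24.9 CPM at 500 min (log2 change −5.04, SE 0.29, edgeR adjusted p = 1.3e-16). The leucine-rich repeat gene sym-1 stood at 856, 1476 and 747 CPM at 330 min and 35.4, 97.9 and 86.1 CPM at 500 min (log2 change −3.66, SE 0.31, edgeR adjusted p = 7.34e-12), after a mean of 978 CPM at 410 min. A second leucine-rich repeat gene, let-4, fell at a log2 change of −1.78. The lipocalin genes moved the other way. The gene lpr-4 stood at 30.6, 48.8 and 13.0 CPM at 330 min and 2474, 1328 and 1824 CPM at 500 min (log2 change 6.11, SE 0.43, edgeR adjusted p = 4.32e-11), and lpr-5 and lpr-6 rose by log2 3.79 and 3.27. All 3 averaged more at 410 min than at 500 min. The genes fbn-1 and sym-1 overlap another gene.

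The hedgehog-related genes encode secreted proteins, many made by epidermal and support cells, and the patched-related genes encode membrane proteins with a sterol-sensing domain. Of 16 hedgehog-related genes that passed the filter 15 rose, 1 fell and 13 were switched on, while 43 were too low to test. The filter favours genes that rose from near 0, and with no filter 26 of 56 rose and 1 fell. The gene grl-15 stood at 0, 2.71 and 0.869 CPM at 330 min and 431, 829 and 652 CPM at 500 min (755-fold higher, counting interval 208 to 6239.7, edgeR adjusted p = 6.73e-17). The gene wrt-2 stood at 1.70, 8.13 and 2.61 CPM at 330 min and 1364, 1262 and 1622 CPM at 500 min (log2 change 8.61, SE 0.46, edgeR adjusted p = 8.96e-16). The genes grl-5 and grd-16 also passed from near 0 to means of 250.1 and 199.6 CPM. The exception was wrt-10, at 1033, 1292 and 742 CPM at 330 min and 53.1, 91.9 and 49.9 CPM at 500 min (log2 change −3.88, SE 0.27, edgeR adjusted p = 2.43e-14), and at 410 min it had averaged 1266 CPM. Of 19 tested patched-related genes 15 rose and 2 fell (10 and 2 with scaling to the spike-ins). Here ptr-18 stood at 8.51, 0 and 5.21 CPM at 330 min and 561, 952 and 689 CPM at 500 min (log2 change 7.09, SE 0.42, edgeR adjusted p = 4.94e-16), and ptr-1 was switched off (log2 −2.85). The genes grl-15, wrt-2 and ptr-1 overlap another gene. The genes grl-5 and grd-16 were not called by DESeq2 (fitted log2 9.88 and 8.48, adjusted p = 0.163 and 0.192).

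Of 14 tested genes of the basement membranes that wrap the tissues 6 fell (42.9%) and 5 rose (35.7%), against 22.5% and 28.5% over all genes. The median log2 change was 0.30 with TMM factors and −0.19 with scaling to the spike-ins, which moved the median of all genes to −0.63. Relative to all genes the list's median was still 0.44 higher with that scaling. The nidogen gene nid-1 stood at 517, 802 and 444 CPM at 330 min and 23.6, 37.1 and 29.4 CPM at 500 min (log2 change −4.17, SE 0.29, edgeR adjusted p = 1.55e-14). The laminin alpha genes epi-1 and lam-3 fell at log2 changes of −1.93 and −2.38, the peroxidasin gene pxn-2 at a log2 change of −3.14 and the integrin gene ina-1 at a log2 change of −0.88. The perlecan gene unc-52 stood at 223, 222 and 191 CPM at 330 min and 933, 999 and 1094 CPM at 500 min (log2 change 2.26, SE 0.30, edgeR adjusted p = 3.07e-07). The collagen IV gene emb-9 rose by log2 1.02 and the protease gene mig-17 by log2 3.59. The genes epi-1, pxn-2, ina-1, unc-52 and mig-17 overlap another gene. The call of ina-1 was lost with scaling to spike-ins while the fitted change was larger (log2 −1.36). The call of emb-9 was lost with that scaling at a smaller change (log2 0.56).

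Innexins, the gap junction proteins of invertebrates, also moved both ways. Of 16 tested genes 8 rose and 4 fell (4 and 2 with scaling to the spike-ins), and the summed level stayed within the same range (2816 to 4191 CPM over the 330 min libraries and 3395 to 3427 CPM over those of 500 min). The gene inx-2 stood at 487, 528 and 502 CPM at 330 min and 17.7, 32.6 and 13.6 CPM at 500 min (log2 change −4.42, SE 0.31, edgeR adjusted p = 2.57e-14). The widely expressed inx-3 went from 935 ± 192 CPM to 228 ± 14.6 CPM (log2 −2.02), and inx-5 fell at a log2 change of −0.83. The pharyngeal innexin gene inx-6 stood at 44.2, 59.6 and 27.8 CPM at 330 min and 378, 558 and 508 CPM at 500 min (log2 change 3.57, SE 0.30, edgeR adjusted p = 4.55e-12). The neuronal inx-19 went from 2.60 ± 2.56 CPM to 85.0 ± 9.35 CPM (log2 5.27). The gene inx-3 overlaps another gene. The call of inx-5 was lost with scaling to spike-ins while the fitted change was larger (log2 −1.34).

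Of 32 tested genes of epidermal attachment, junctions and elongation 11 rose and 4 fell, with 8 and 12 under library size alone and 5 and 3 under scaling to the spike-ins, and 7 that fell without replicate 2 of 330 min. The share that rose with TMM factors, 34.4%, was near the 28.5% over all genes, and 12.5% fell against 22.5%. The intermediate filament gene ifa-1 stood at 0, 2.71 and 3.48 CPM at 330 min and 112, 271 and 240.2 CPM at 500 min (log2 change 6.39, SE 0.50, edgeR adjusted p = 1.51e-12). The cell fusion genes aff-1 and eff-1 rose by log2 3.17 and 3.10. The basolateral polarity gene let-413 fell from 151 ± 16.1 CPM to 35.9 ± 13.2 CPM and the spectrin gene sma-1 at a log2 change of −1.55. The gene eff-1 overlaps another gene.

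**Figure D4:**
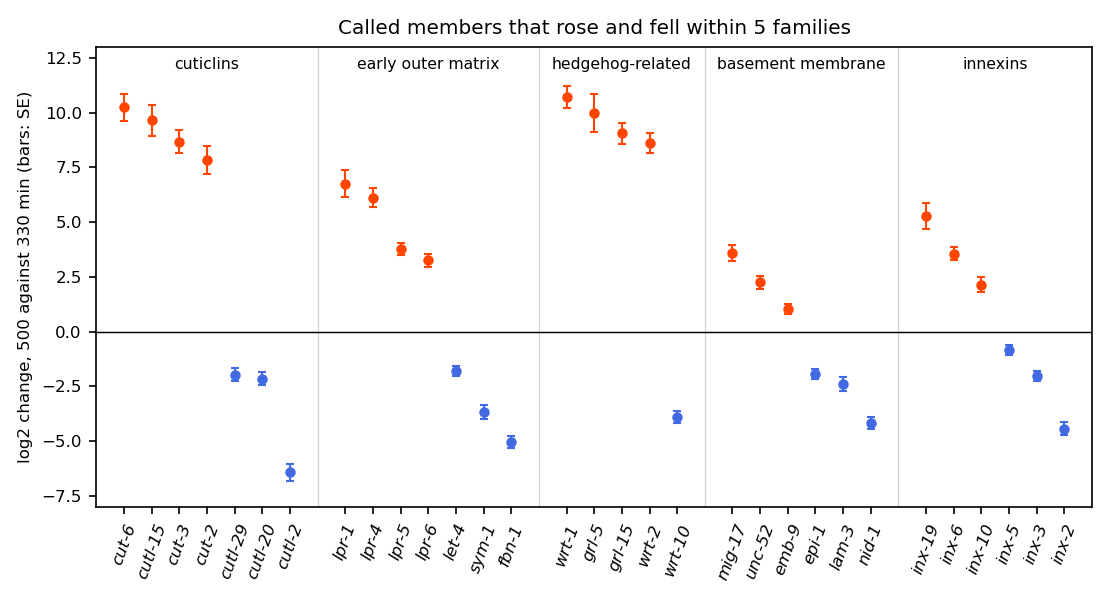
Fitted log2 change at 500 against 330 min (y axis, bars show the SE) of named called members of 5 families in which some genes rose and others fell. Values of cut-6, cutl-15 and grl-5, which had 0 counts at 330 min, depend on the prior count of the fit and are not bounds.

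In the nervous system the genes of the working synapse rose. Of 33 tested pan-neuronal and synaptic genes 23 rose and 0 fell, with a median log2 change of 2.56 and a summed level of 3224 to 3757 CPM over the 330 min libraries and 6436 to 8880.0 CPM over those of 500 min. The synaptogyrin gene sng-1 stood at 1.70, 0 and 0 CPM at 330 min and 88.6, 163 and 168 CPM at 500 min (326-fold higher, counting interval 57.9 to 12957, edgeR adjusted p = 9.48e-13). The synaptotagmin gene snt-1, the calcium sensor of release, stood at 1.70, 2.71 and 0 CPM at 330 min and 59.0, 94.9 and 70.2 CPM at 500 min (86.1-fold higher, counting interval 23.3 to 720.4, edgeR adjusted p = 1.22e-08), and at 410 min it averaged 1.81 CPM. The release factor gene unc-13, the neuropeptide-processing gene egl-21 and the active zone gene syd-1 rose by log2 5.81, 5.42 and 5.38. Of 4 tested genes of neurotransmitter synthesis and transport 4 rose, and of 8 tested genes of neurotransmitter receptors and their chaperones 7 rose, with 2 and 5 under scaling to the spike-ins. A further 16 and 14 genes of these lists were too low to test, and with no filter 12 of 20 and 17 of 21 rose. The acetylcholinesterase gene ace-1 went from 3.52 ± 1.84 CPM to 194 ± 70.7 CPM (log2 6.00), the GABA-B receptor gene gbb-1 from 1.48 ± 1.37 CPM to 157 ± 52.2 CPM (125-fold, counting interval 42.1 to 609) and the chaperone gene ric-3 from 52.4 ± 3.42 CPM to 505 ± 94.8 CPM (log2 3.29).

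Of 10 tested flp genes 9 rose and 8 were switched on, and of 23 tested nlp genes 18 rose, 1 fell and 16 were switched on. The filter left 21 flp and 55 nlp genes untested and favours genes that rose from near 0. With no filter 22 of 31 flp genes rose and 0 fell, and 34 of 72 nlp genes rose and 3 fell. The gene flp-1 stood at 0 CPM in all 3 libraries of 330 min and 88.6, 93.4 and 81.6 CPM at 500 min (at least 61.7-fold higher, edgeR adjusted p = 2.55e-10). The gene flp-25 stood at 1.70, 5.42 and 1.74 CPM at 330 min and 254, 233 and 240.2 CPM at 500 min (log2 change 6.50, SE 0.40, edgeR adjusted p = 8.06e-16). The gene nlp-49 stood at 1.70, 2.71 and 0 CPM at 330 min and 106, 294 and 204 CPM at 500 min (251-fold higher, counting interval 68.9 to 2082, edgeR adjusted p = 1.03e-12). No library of 330 min reached any of 500 min in these, as in 2146 of all 2358 higher genes. The member that fell, nlp-31, encodes an epidermal antimicrobial peptide and stood at 91.9, 152 and 52.1 CPM at 330 min and 5.91, 2.96 and 11.3 CPM at 500 min (log2 change −3.82, SE 0.47, edgeR adjusted p = 1.51e-08), switched off by the rule. Of 5 tested insulin-like genes 2 were switched on (4 of 7 rose without replicate 2 of 330 min), ins-1 at 0 CPM in all 3 libraries of 330 min and 236, 187 and 168 CPM at 500 min (at least 131-fold higher, edgeR adjusted p = 3.04e-13) and ins-6 at a mean of 63.9 CPM from 0, while ins-2 was switched off.

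Of 37 tested genes of cilia and intraflagellar transport, which in the worm serve sensory neurons, 29 rose (19 with scaling to the spike-ins), 0 fell and 18 were switched on. The gene dyf-6 stood at 0 CPM in all 3 libraries of 330 min and 70.9, 77.1 and 49.9 CPM at 500 min (at least 46.3-fold higher, edgeR adjusted p = 2.77e-09). The transport genes che-11 and che-3 rose by log2 4.92 and 4.53 and the ciliary gate gene mks-2 by log2 4.95. Glia and other sensory support cells were marked by daf-6, which shapes the channel around the cilia, at 27.2, 19.0 and 21.7 CPM at 330 min and 283, 322 and 261 CPM at 500 min (log2 change 3.65, SE 0.36, edgeR adjusted p = 5.22e-10), and 7 of 9 tested genes of that list rose and 0 fell. Of 30 tested axon guidance genes, which act as neurons grow out, 17 were not called, against 4059 of 8279 over all genes. With TMM factors 10 rose and 3 fell (9 and 9 with library size alone, 3 and 2 with scaling to the spike-ins). The share that rose with TMM factors, 33.3%, was near the 28.5% over all genes, and the share that fell was under 22.5%. The secreted guidance genes slt-1 and madd-4 rose by log2 3.33 and 4.36, and the ephrin gene efn-4 fell at a log2 change of −1.31. The genes dyf-6, che-11 and madd-4 overlap another gene.

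**Figure D5:**
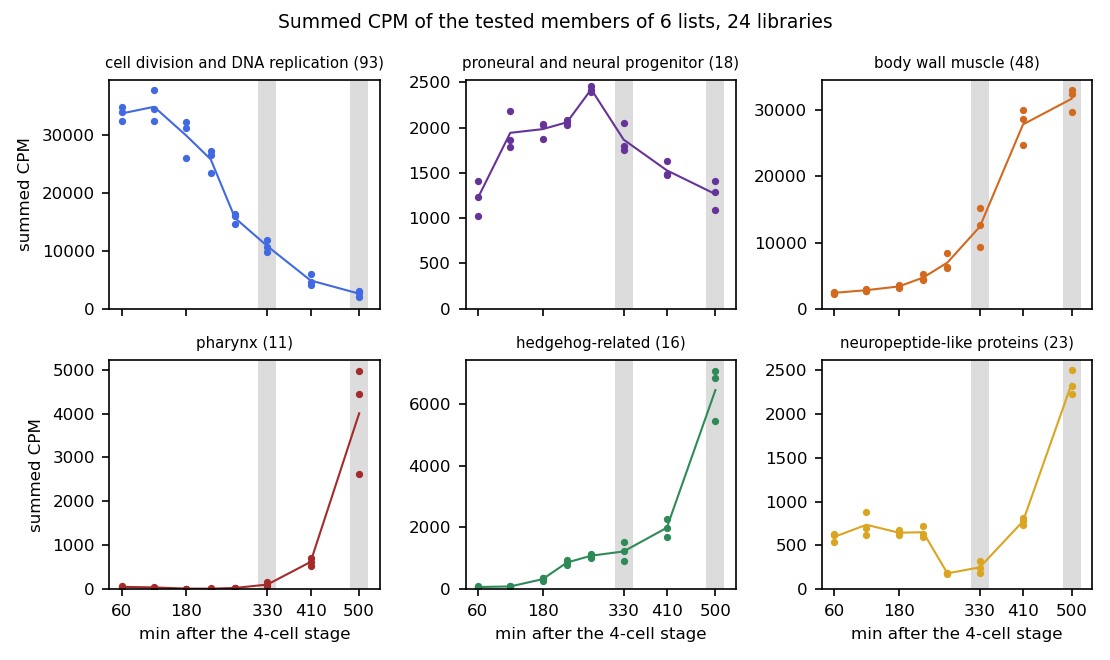
Summed CPM (y axes, linear from 0) of the tested members of 6 lists in all 24 libraries against time in min after the 4-cell stage, with 1 point per library, a line through stage means and grey bands at 330 and 500 min. The cell division sum falls throughout from 120 min, the proneural sum falls after 270 min, and the pharynx, hedgehog-related and neuropeptide-like sums are at their highest at 500 min.

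Housekeeping genes gave calls that depended on the processing. Of 75 tested cytosolic ribosomal protein genes 61 rose with a median log2 change of 0.63, but 0 rose with library size alone or with scaling to the spike-ins, 0 in a fit to the 6 libraries alone, 32 without replicate 1 of 330 min, 4 without replicate 3 of 330 min and 3 without replicate 1 of 500 min. Of the 75, 74 exceeded 500 counts in some library, and the summed level was 49214 to 99713 CPM over the 330 min libraries and 88990 to 151753 CPM over those of 500 min. Of 39 tested genes of oxidative phosphorylation 16 rose (41.0%, against 28.5% over all genes), with 0 under scaling to the spike-ins. Without replicate 1 of 330 min, replicate 3 of 330 min and replicate 1 of 500 min, 9, 7 and 10 rose. Of 18 tested glycolytic genes 8 rose (3 with scaling to the spike-ins) and 1 fell. With TMM factors these shares were 44.4% and 5.56%, against 28.5% and 22.5% over all genes. The aldolase genes aldo-2 and aldo-1 went from 113 ± 66.3 CPM to 1097 ± 87.8 CPM (log2 3.35) and from 28.5 ± 13.7 CPM to 263 ± 109 CPM (log2 3.29), and hxk-1, a hexokinase gene, fell at a log2 change of −1.35. Of 31 tested proteasome genes 5 rose and 2 fell with TMM factors, and 1 rose and 12 fell with library size alone, and 2, 2 and 3 rose without replicate 1 of 330 min, replicate 2 of 500 min and replicate 3 of 500 min. With TMM factors 16.1% rose and 6.45% fell, both under the shares over all genes. Of 5 tested small heat shock protein genes 4 rose (2 with scaling to the spike-ins), and 11 others were too low to test. Among those that rose, hsp-43 went from 9.38 ± 3.81 CPM to 306 ± 36.1 CPM (log2 5.17). The gene aldo-2 overlaps another gene.

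By the WBcel235 annotation the switched-on genes were spread unevenly over the chromosomes, given here as a description. The X chromosome held 13.6% of the tested genes, 22.4% of the switched-on genes and 13.4% of the switched-off genes. Chromosome V held 15.9%, 24.1% and 17.3% of these sets. Chromosomes I and III held 18.8% and 17.8% of the tested genes but 10.4% and 8.78% of the switched-on ones.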

How the data were processed

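The deposited count table held 20687 worm genes and 92 ERCC spike-ins for 24 libraries, with 0 columns left unused. Its values were whole-number counts made by the authors, with HTSeq named in the submitters' processing notes without a version. The aligner, genome build, annotation and strand setting were not given in the sources used here. The highest value in the deposited table was 1023, so counts near it may understate a level. Stages came from the labels. The filter was filterByExpr (minimum count 10, minimum total 15). It kept genes for which at least 3 of the 24 libraries, of any stage, reached the CPM of 10 counts at the median library size. These genes were fitted with edgeR 4.0.16 in R 4.3.3 (limma 3.58.1). The quasi-likelihood model had 8 stages over all 24 libraries, TMM factors and 16 residual degrees of freedom. The stage of 500 min was contrasted with that of 330 min at a Benjamini-Hochberg adjusted p of 0.05. The 8279 tested genes held 98.2% of worm counts. The fit was also run on simulated counts with known changes, as a check of the code only. CPM values were scaled by TMM factors. Symbols, positions and overlaps came from Ensembl release 115 (WBcel235), which matched 20086 identifiers and left 601 without a match.

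Gene lists and members were chosen with earlier results of these data known. Named genes were the 12 highest and 12 lowest changes, up to 5 members of a list in its main direction and 3 in the other by size at 50 CPM or more, and any regulator, class or marker gene. Intervals (exact binomial, 95%) and the floor of 3 counts per stage, 1.42 CPM at 330 min and 2.33 CPM at 500 min, cover counting error only. Families of near-identical copies (histones, abu, msp, vit) may share counts. Spike-in rows entered only the scaling alternatives. DESeq2 1.42.0, other scalings and filters, a replicate block and libraries left out were tried as alternatives.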

Additional observations from a re-analysis of the deposited data

How the results depend on the processing

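The count of genes higher at 500 min, 2358, was 1166 with scaling to the spike-ins, 1236 with scaling to the 69 spike-ins of at most 500 counts and 3586 of 17522 with no filter. The count of lower genes, 1862, was 3130 with library size alone. Switched-off genes, 235, numbered 365 with library size alone, which kept 235 of them, and 373 with scaling to the spike-ins, which kept 221. Replicates 1 and 2 of a stage carry the same running sample number in their labels, so they may not be separate samples. Their yolk protein genes summed to 0 and 1127 CPM at 330 min and to 5.91 and 709 CPM at 500 min. The Spearman correlations between them, 0.939 at 330 min and 0.927 at 500 min, were the lowest within each stage. Whether they were separate samples was not tested. Switched-on genes, 816, numbered 1228 with replicates 1 and 2 summed into 1 sample, a fit that tested 9317 genes. The cause of these moves was not tested beyond the number of genes fitted. Leaving out 1 library gave 2130 to 2647 higher, 1491 to 1876 lower, 223 to 281 switched-off and 825 to 1135 switched-on genes. DESeq2 gave 2464 higher and 1353 lower genes. Same-numbered libraries of the stages correlated weakly in their deviations (r of 0.229, 0.059 and 0.086, against −0.19 to 0.157 between different numbers). Not every library correlated best with its own number, so whether the numbers pair the samples was not settled. With the replicate block 2504 genes were higher, 2065 lower, 239 switched off and 816 switched on. The median SE was 0.321 with the block and 0.351 without it. No call of a named gene was reversed in any alternative run, but 17 of the 23 named genes that were not called changed sign in at least 1. Of the 215 named genes called, DESeq2 did not call 10, at the fitted changes given beside each. With library size alone daf-5, kin-20, skn-1 and unc-30 were not called, while ceh-13, lin-26, lin-39, php-3, tbx-2, ttx-1, unc-120 and unc-42 were called lower. The block and the fit without a filter called ceh-13, lin-26 and tbx-2 lower. The fit to the 6 libraries alone and that with replicates 1 and 2 summed called ceh-13 and tbx-2. Leaving out replicate 1 of 330 min called ceh-13, and leaving out replicate 2 of 500 min called lin-26. A fit to counts corrected for the limit of 1023 called ceh-13 and lin-26. Without replicate 1 of both stages egl-44, inx-12, nhr-25 and sup-17 were not called. That alternative and the lower spike-ins were chosen after seeing the data. Depth limits genes near 1 count, which stood for up to 5.91 CPM at 500 min.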
